A study of Homo sapiens with 24 samples.

Results

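The question addressed here is whether the response of RT112 cells to ZBED2 siRNAs depends on the presence of a FOXA1 siRNA. RT112 is an established human bladder cancer line of the luminal papillary (LumP) class. The data are the 12 RT112 libraries of a 3′ RNA-seq series of 24, the other 12 being of SCaBER, an established line of the basal/squamous (Ba/Sq) class that was used only for comparison. RT112 cells were transfected with a control siRNA (siControl, control siRNA number 2), with either of a pair of ZBED2 siRNAs (siZBED2-1 or siZBED2-2), with a single FOXA1 siRNA (siFOXA1, number 1), or with that FOXA1 siRNA together with either ZBED2 siRNA (siFOXA1+siZBED2-1 and siFOXA1+siZBED2-2, the double knock-downs). Each of the 6 groups held 2 libraries. The interaction was computed for each gene on the log2 scale as the siZBED2 change on siFOXA1 (mean of both double knock-downs minus siFOXA1) minus the siZBED2 change on siControl (mean of both siZBED2 groups minus siControl). A value above 0 means that adding a ZBED2 siRNA moved the gene further up, or less far down, when FOXA1 was also depleted. All cells came from transient transfection of a single line, FOXA1 was depleted by 1 siRNA sequence throughout, and whether single and double knock-downs received the same total amount of siRNA is not given in the sources used here.

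FOXA1 is a forkhead transcription factor that can open compact chromatin, and it works with GATA3 and PPARG to keep urothelial cells in the luminal state. ZBED2 is a zinc finger transcription factor that can occupy interferon response elements and so compete with IRF1, a transcription factor that activates interferon genes. When 2 regulators act independently, the effect of losing one is the same, on a log scale, with or without the other, and the interaction is 0.

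The 12 RT112 libraries held 4425404 to 5207195 counts each. Levels are given as CPM, the count scaled to a common library size with TMM factors. A gene without reads could still have up to 3 counts, which is 0.520 to 0.663 CPM here and covers counting error only. Transcripts of the mitochondrial genome took 21.4% and 22.7% of counts under siFOXA1, 18.6% to 20.6% in the double knock-downs, 17.8% and 12.2% under siControl, and 8.22% to 16.9% under the ZBED2 siRNAs alone. Luminal markers in RT112 were at high levels (median over 12 libraries 398 CPM for GATA3 and 2957 CPM for KRT19, keratin 19), while the basal keratins KRT14 and KRT6A had medians of 1.74 and 9.36 CPM against 354 and 1164 CPM in SCaBER. Other basal markers were well detected in RT112 at lower medians than in SCaBER, such as KRT5 (230.0 against 864 CPM), CD44 (153 against 499 CPM) and CDH3 (94.1 against 581 CPM). KRT20, a keratin of terminally differentiated umbrella cells, was at 0 in 10 of 12 RT112 libraries. Of the markers of other cells, PTPRC, CD3E, COL1A2 and DCN had at most 13 counts in any RT112 library and LUM, a stromal proteoglycan, had 65.5 to 179 CPM in RT112 and 9.95 to 30.8 CPM in SCaBER. COL1A1, a collagen chain, had 5.05 and 4.40 CPM under siControl, 24.3 and 17.9 under siZBED2-1, 12.5 and 7.98 under siZBED2-2, 39.8 and 42.1 under siFOXA1, 54.5 and 40.2 under siFOXA1+siZBED2-1, and 58 and 36.2 under siFOXA1+siZBED2-2, so it was lowest under siControl. The summed level of the markers of other cells was 123 to 171 CPM under siControl, 128 to 196 CPM under the ZBED2 siRNAs alone, 104 to 106 CPM under siFOXA1 and 113 to 137 CPM in the double knock-downs.

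The depleted genes check the labels. FOXA1 (ENSG00000129514, chr14:37589552-37595249 of GRCh38.p14) stood at 42.1 and 41.2 CPM under siControl, 45.5 and 56.8 under siZBED2-1, 48.5 and 31.2 under siZBED2-2, 6.83 and 9.44 under siFOXA1, 4.03 and 11.3 under siFOXA1+siZBED2-1, and 15.5 and 9.89 under siFOXA1+siZBED2-2. All 6 libraries with the FOXA1 siRNA lay below all 6 without it, and against siControl the siFOXA1 change of FOXA1 on the log2 scale was -2.36 (SE 0.38, adjusted p = 5.7e-05). Its interaction was 0.17 (SE 0.46, adjusted p = 0.94), so no difference in FOXA1 depletion between single and double knock-downs was called. ZBED2 (ENSG00000177494, chr3:111592900-111595346) had 101 and 92 reads under siControl, 12 and 0 under siZBED2-1, 38 and 36 under siZBED2-2, 27 and 7 under siFOXA1, 9 and 7 under siFOXA1+siZBED2-1, and 12 and 4 under siFOXA1+siZBED2-2. ZBED2 fell under the ZBED2 siRNAs (log2 -2.75 (SE 0.71, adjusted p = 0.026), mean of both), with fewer reads left under siZBED2-1 than under siZBED2-2. Taken alone, the change was called for siZBED2-1 (-3.97, SE 0.91, adjusted p = 0.0062). For siZBED2-2 alone it was -1.52 (SE 0.78, adjusted p = 0.9), not called. ZBED2 also fell under siFOXA1 alone, with a log2 change of -2.48 (SE 0.81, adjusted p = 0.033). The change on adding a ZBED2 siRNA to siFOXA1 was -1.03 (SE 0.77, adjusted p = 0.57), not called, and 12 reads was the highest count in a double knock-down library. Without a ZBED2 siRNA, ZBED2 thus had 101 and 92 reads on siControl and 27 and 7 on siFOXA1. The ZBED2 siRNAs therefore had less ZBED2 to remove on siFOXA1. In this design a dependence on FOXA1 and this difference in ZBED2 depletion cannot be told apart. The part of the latter in the interactions below was not tested. The interaction for ZBED2 itself was 1.72 (SE 1.05, adjusted p = 0.55).

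**Figure D1:**
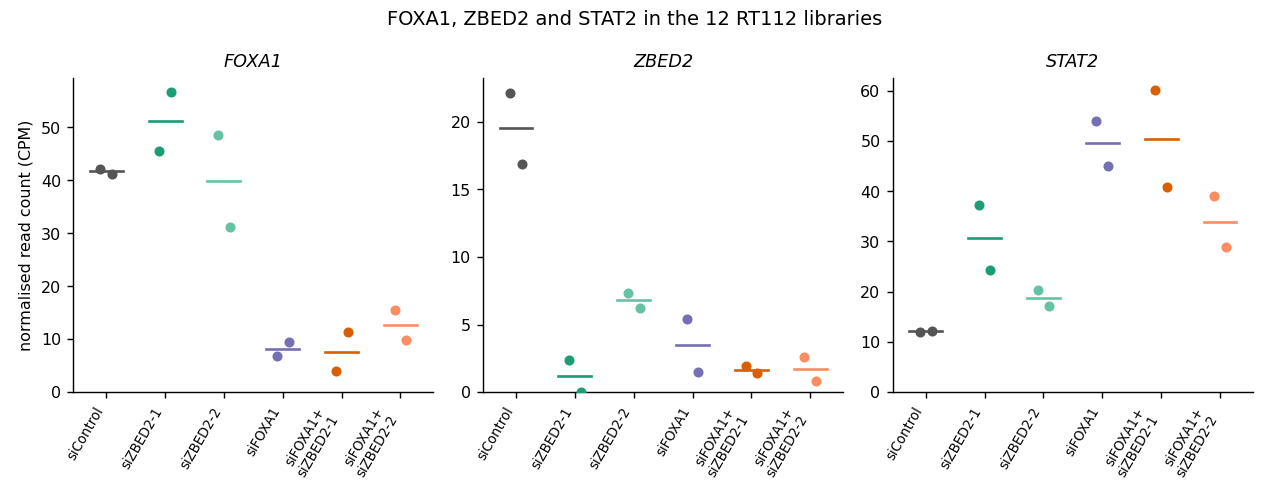
Normalised read count (CPM, vertical axis from 0) of FOXA1, ZBED2 and STAT2 in each RT112 library (points, 2 per treatment), with the mean of the 2 libraries as a bar. FOXA1 is low in all 6 libraries with the FOXA1 siRNA, ZBED2 is highest in both siControl libraries, and STAT2 is lowest in both siControl libraries.

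Of 13264 genes tested, 81 (0.611%) were called for the interaction at an adjusted p under 0.05 by edgeR's quasi-likelihood F-test, 41 above 0 (0.309%) and 40 below 0 (0.302%). At an unadjusted p under 0.05 there were 1609 (12.1%). With the replicate number as a block 212 (1.6%) were called, 115 above and 97 below 0, and these included all 81. For 56 of the 81 the interaction was at least 2-fold (log2 of 1 or more in size), 25 above and 31 below 0, and the median size was 1.18 on the log2 scale. In all 81 the interaction had the same sign for each ZBED2 siRNA taken alone. Both use the same siControl and siFOXA1 libraries, and the 81 were picked by the mean of both. That agreement in sign is thus no separate evidence. The count rested on few libraries: 13 genes were called without siFOXA1 replicate 2 and 330 without siFOXA1 replicate 1, and 22 without siControl replicate 2. By limma on log2(TPM + 1) 4 genes were called, of which 1, ANKRD1, was among the 81.

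The interaction is the difference of both siZBED2 effects, and siFOXA1 on siControl uses libraries of both, so the following split describes how the called values came about and is no separate evidence. Among the 41 genes above 0, 24 rose when siZBED2 was added to siFOXA1 and were not called for siZBED2 on siControl (background 1.32% called higher on siFOXA1), and 14 fell under siZBED2 on siControl without a call on siFOXA1 (background 1.04% called lower on siControl). Among the 40 genes below 0, 29 rose under siZBED2 on siControl (background 1.33%), and 27 of these were also higher under siFOXA1 alone and not called for siZBED2 on siFOXA1. Of the same 40, 8 fell when siZBED2 was added to siFOXA1 (background 0.641%), and 2 of these 8, ANKRD1 and SLC17A5, were among the 29. The median change under siFOXA1 alone was -1.43 for the 41 genes and 1.62 for the 40, where 11.9% and 11.3% of all genes tested were called lower and higher.

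**Figure D2:**
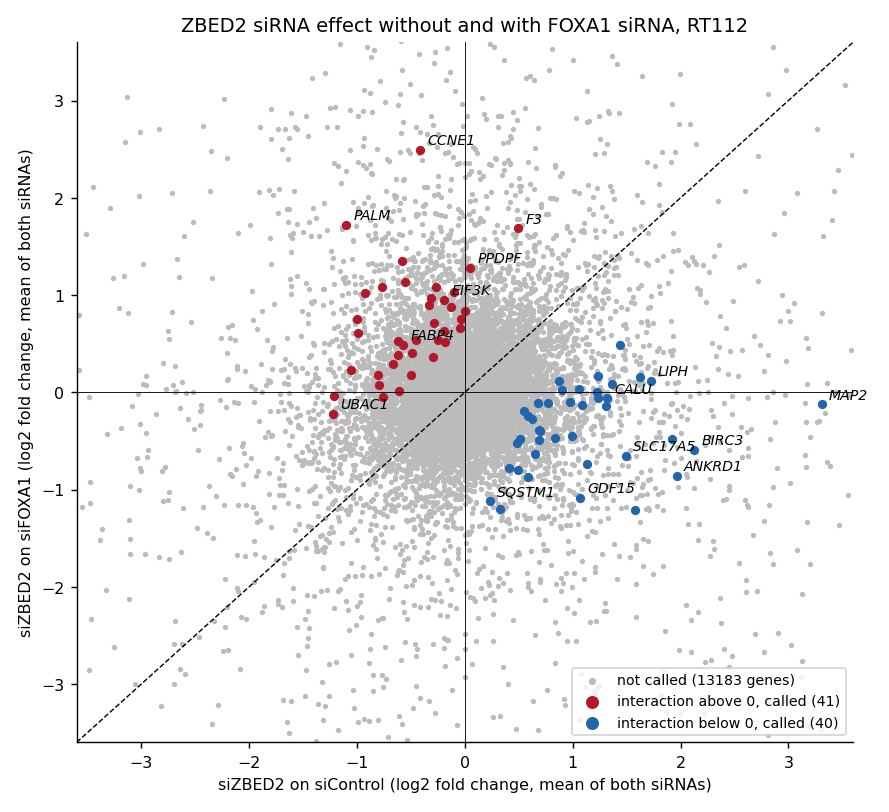
Log2 fold change of siZBED2 on siControl (horizontal axis) against that of siZBED2 on siFOXA1 (vertical axis) for the genes tested in RT112, each the mean of both ZBED2 siRNAs. Genes with equal effects lie on the dashed line. The 41 called genes above 0 (red) lie above it and the 40 below 0 (blue) lie below it, most of the blue ones at positive values of the horizontal axis, where 29 of the 40 were called higher. The plot leaves out 334 genes beyond 3.6 on either axis, 3 of them called.

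The most stable calls were 9 genes that passed the test with any single RT112 library left out: ANKRD1, SLC17A5, CALU, SQSTM1, LIPH, MAP2 and PLEKHB2 below 0, and EIF3K and CAMK2N1 above 0. ANKRD1 (ENSG00000148677, chr10:90912096-90921087), a cardiac ankyrin repeat protein and a well-known target of the YAP and TEAD transcription factors, stood at 9.43 and 8.61 CPM under siControl, 130.041 and 112 under siZBED2-1, 8.67 and 11.8 under siZBED2-2, 98.2 and 91.6 under siFOXA1, 89.3 and 72.1 under siFOXA1+siZBED2-1, and 43.1 and 25 under siFOXA1+siZBED2-2. It was low in both siControl and both siZBED2-2 libraries and higher in both siZBED2-1 libraries than in both siFOXA1 libraries. Its interaction was -2.82 (SE 0.32, adjusted p = 4.2e-05), made of a change of 1.97 (SE 0.25, adjusted p = 4e-05) on siControl and of -0.86 (SE 0.20, adjusted p = 0.023) on siFOXA1. For siZBED2-1 alone the interaction was -3.98 (SE 0.35, adjusted p = 3.4e-07) and for siZBED2-2 alone -1.67 (SE 0.38, adjusted p = 0.1), and the difference between the siRNAs was -2.32 (SE 0.35, adjusted p = 0.003). The rise of ANKRD1 on siControl was thus that of siZBED2-1, whereas on siFOXA1 the lowest libraries were those with siZBED2-2.

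The promoter of ANKRD1 is shown because this gene had the smallest p of all and its regulation by TEAD factors is well established. The 250 bases before its start site are given 5′ to 3′ from RefSeq (GRCh38.p14, minus strand, chr10:90921088-90921337), with capitals for the letters of a TEAD motif (GGAATG) or of an AP-1 motif (TGANTCA), searched on both strands.
ANKRD1: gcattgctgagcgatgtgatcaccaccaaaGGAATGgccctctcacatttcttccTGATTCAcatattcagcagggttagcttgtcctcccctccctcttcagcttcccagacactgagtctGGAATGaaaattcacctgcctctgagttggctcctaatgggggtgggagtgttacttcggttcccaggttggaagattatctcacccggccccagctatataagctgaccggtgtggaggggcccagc
The window holds 2 matches to the TEAD motif, starting 220 and 128 bases before the start site, and 1 to the AP-1 motif at 195 bases. RefSeq windows were found for 25 of the 40 genes below 0 (40 windows) and 33 of the 41 above 0 (50 windows). GGAATG was present in 17.5% of the former and 14.0% of the latter, against 9.88% of the 14217 windows of all genes tested. TGANTCA was in 10.0% and 4.0%, against 4.50%, and the forkhead motif TGTTTAC in 5.0% and 2.0%, against 2.24%. These shares rest on few windows, where 1 window is 2.5% of those below 0 and 2.0% of those above 0, and a match in letters is not a bound site. A gene can have several windows, so windows are not separate genes. Of the 7 windows above 0 with GGAATG, several were of RAI14 alone. Among the 7 below 0, both OPTN windows overlap and hold the same match.

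SLC17A5 (ENSG00000119899, chr6:73593379-73653992), the lysosomal exporter of sialic acid, was the other gene called in opposite directions. Its values were 16.2 and 27.8 CPM under siControl, 71.3 and 66.3 under siZBED2-1, 62.2 and 52.4 under siZBED2-2, 224 and 265 under siFOXA1, 199.6 and 191 under siFOXA1+siZBED2-1, and 106 and 141 under siFOXA1+siZBED2-2. Every siZBED2 library lay above both siControl libraries and every double knock-down library below both siFOXA1 libraries. The interaction was -2.15 (SE 0.25, adjusted p = 4.2e-05), with a change of 1.496 (SE 0.19, adjusted p = 4.5e-05) on siControl and of -0.65 (SE 0.16, adjusted p = 0.033) on siFOXA1. It was called for siZBED2-1 (-1.95) and for siZBED2-2 (-2.35) taken alone.

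CALU (ENSG00000128595, chr7:128739359-128773400), which encodes the calcium-binding protein calumenin of the secretory pathway, had 104 and 81.5 CPM under siControl, 210.2 and 206 under siZBED2-1, 281 and 233 under siZBED2-2, 372 and 414 under siFOXA1, 364 and 337 under siFOXA1+siZBED2-1, and 394 and 418 under siFOXA1+siZBED2-2. All 4 siZBED2 libraries lay above both siControl libraries, all 6 libraries with the FOXA1 siRNA lay above those 4, and siFOXA1 alone and the double knock-downs overlapped. The interaction was -1.38 (SE 0.18, adjusted p = 0.00019). PLEKHB2, a membrane protein with a pleckstrin homology domain, had 83.8 and 81.9 CPM under siControl, 174 and 174 under siZBED2-1, 180.1 and 175 under siZBED2-2, 208 and 229 under siFOXA1, 177 and 206 under siFOXA1+siZBED2-1, and 192 and 222 under siFOXA1+siZBED2-2. Only both siControl libraries were low, and the interaction was -1.22 (SE 0.18, adjusted p = 0.0009). LIPH, a lipase that makes lysophosphatidic acid, had 20.2 and 18.1 CPM under siControl, 125 and 102 under siZBED2-1, 36.8 and 33.8 under siZBED2-2, 116 and 122 under siFOXA1, 132 and 167 under siFOXA1+siZBED2-1, and 110.3 and 114 under siFOXA1+siZBED2-2. Both siZBED2-1 libraries were near the level of siFOXA1 and both siZBED2-2 libraries far below it, and the difference between the siRNAs was -1.27 (SE 0.26, adjusted p = 0.048). The interaction for LIPH over both siRNAs was -1.60 (SE 0.23, adjusted p = 0.00081).

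MAP2, a microtubule-associated protein best known from neurons, was near the detection limit under siControl. It had 7 and 2 reads under siControl, 95 and 77 under siZBED2-1, 16 and 36 under siZBED2-2, 296 and 405 under siFOXA1, 769 and 721 under siFOXA1+siZBED2-1, and 135 and 137 under siFOXA1+siZBED2-2. All 4 siZBED2 libraries had more reads than both siControl libraries. On siFOXA1 the siRNAs went apart, with 163 and 146 CPM in the libraries with siZBED2-1 and 29.6 and 28.8 CPM in those with siZBED2-2 against 59.4 and 86.9 CPM under siFOXA1. Its interaction was -3.43 (SE 0.59, adjusted p = 0.0009) on the log2 scale, but on the linear CPM scale the sign was opposite, the only such case among the 81 genes.

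**Figure D3:**
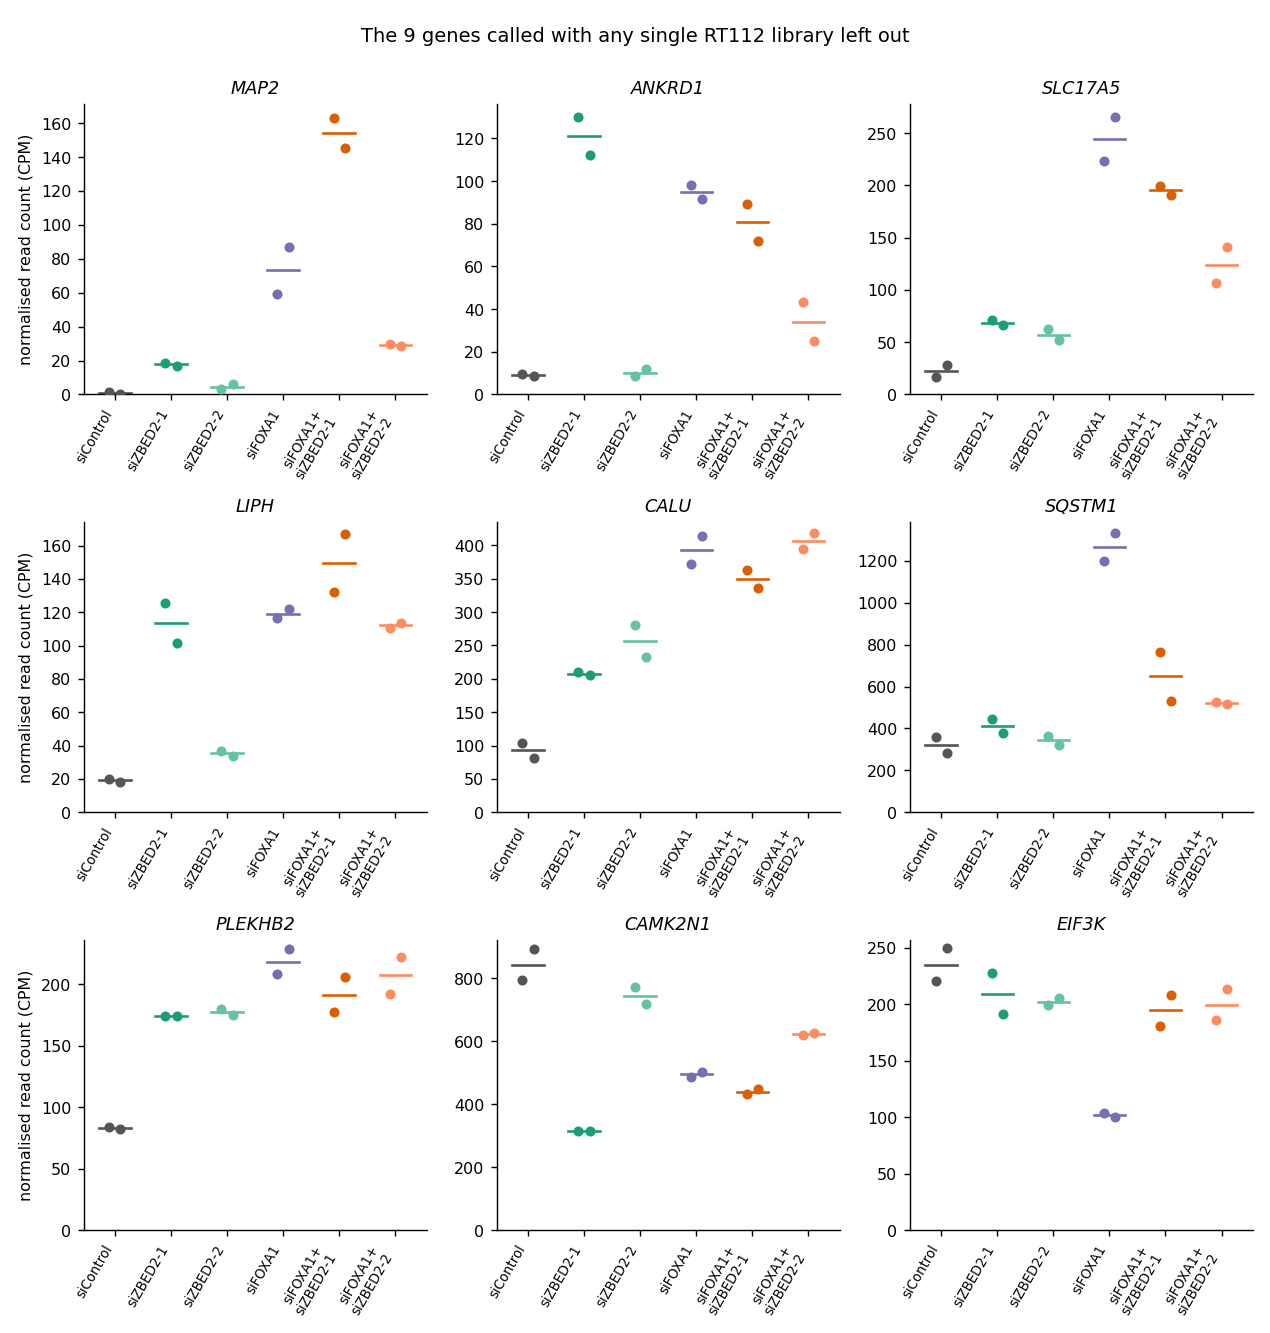
Normalised read count (CPM, vertical axes from 0) of the 9 genes called for the interaction with any single RT112 library left out, in each library (points) and as the mean of 2 libraries (bars). For EIF3K only both siFOXA1 libraries are low, for PLEKHB2 only both siControl libraries are low, and for SQSTM1 only both siFOXA1 libraries stand far above the rest.

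A further set of genes below 0 had the same calls as CALU for the mean of both ZBED2 siRNAs. They rose under siZBED2 on siControl and under siFOXA1, and adding siZBED2 to siFOXA1 gave no call. In CLU and EGFR the siRNAs went apart on siFOXA1. Both libraries with siZBED2-1 lay above both siFOXA1 libraries, and both with siZBED2-2 lay below them. CLU, the secreted chaperone clusterin, stood at 26.3 and 28.4 CPM under siControl, 98 and 102 under siZBED2-1, 33.3 and 48.7 under siZBED2-2, 271 and 335 under siFOXA1, 379 and 436 under siFOXA1+siZBED2-1, and 216 and 236 under siFOXA1+siZBED2-2. Its interaction was -1.22 (SE 0.21, adjusted p = 0.0059). EGFR, the epidermal growth factor receptor, lay at 80.3 and 71.6 CPM under siControl, 179 and 189 under siZBED2-1, 104 and 115 under siZBED2-2, 157 and 149 under siFOXA1, 186 and 184 under siFOXA1+siZBED2-1, and 118 and 144 under siFOXA1+siZBED2-2. The interaction of EGFR was -0.88 (SE 0.19, adjusted p = 0.03). SPRR3, a cornified envelope protein of squamous cells, rose by 1.44 on siControl and had a change of 0.49 on siFOXA1 that did not pass (adjusted p = 0.12), for an interaction of -0.95 (SE 0.22, adjusted p = 0.043).

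CYR61, a matricellular protein and like ANKRD1 a YAP target, had 6.58 and 11.9 CPM under siControl, 42.2 and 42.6 under siZBED2-1, 9.24 and 10.4 under siZBED2-2, 38.6 and 69.5 under siFOXA1, 36.7 and 53.9 under siFOXA1+siZBED2-1, and 23.2 and 23.4 under siFOXA1+siZBED2-2. Its interaction was -1.86 (SE 0.41, adjusted p = 0.028), and both siZBED2-2 libraries lay inside the range of siControl. STK3, the MST2 kinase of the Hippo pathway that restrains YAP, had an interaction of -1.29 (SE 0.28, adjusted p = 0.028) and rose by 1.23 on siControl. BIRC3, an inhibitor of apoptosis induced by NF-kB, went from 2.63 and 1.83 CPM under siControl to 16.2 and 21.9 with siZBED2-1, 7.13 and 2.95 with siZBED2-2 and 17.7 and 21.5 under siFOXA1, and its interaction was -2.72 (SE 0.62, adjusted p = 0.034). OPTN, the autophagy receptor optineurin, had 42.6 and 39 CPM under siControl, 159 and 151 under siZBED2-1, 50.6 and 32.8 under siZBED2-2, 120.5 and 129.6 under siFOXA1, 188 and 124 under siFOXA1+siZBED2-1, and 82.3 and 91.8 under siFOXA1+siZBED2-2. On siControl both siZBED2-1 libraries were high and both siZBED2-2 libraries near siControl. Its interaction was -1.08 (SE 0.25, adjusted p = 0.044). The serine proteases PRSS8 (-1.09, adjusted p = 0.018) and PRSS22 (-1.46, adjusted p = 0.0079), the polarity protein gene PARD6B (-1.07, adjusted p = 0.015) and SDCBP2, the syntenin-2 gene (-1.28, adjusted p = 0.0094), also had interactions below 0.

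The calls of 5 genes, SQSTM1, FBXO32, GDF15, PRSS22 and SAT1, shared another pattern for the mean of both ZBED2 siRNAs. They rose under siFOXA1, had no call for siZBED2 on siControl, and fell when siZBED2 was added to siFOXA1. Single siRNAs could differ from that mean: on siControl FBXO32 rose with siZBED2-1 alone (1.15, adjusted p = 0.001), with -0.16 for siZBED2-2. GDF15 was also higher in both siZBED2-1 libraries than in both siControl libraries. SQSTM1 (ENSG00000161011, chr5:179806393-179838078), the autophagy receptor p62 and a target of NRF2, had 358 and 283 CPM under siControl, 444 and 376 under siZBED2-1, 366 and 323 under siZBED2-2, 1198 and 1333 under siFOXA1, 767 and 529.9 under siFOXA1+siZBED2-1, and 525 and 518 under siFOXA1+siZBED2-2. All 4 double knock-down libraries lay below both siFOXA1 libraries and above both siControl libraries. The interaction was -1.35 (SE 0.19, adjusted p = 0.00046), with a change of 0.23 (SE 0.13, adjusted p = 0.5) on siControl and -1.12 (SE 0.13, adjusted p = 2.2e-05) on siFOXA1. GDF15, a stress-induced cytokine and p53 target, had 11.4 and 6.60 CPM under siControl, 42.2 and 33.8 under siZBED2-1, 13.7 and 5.03 under siZBED2-2, 60.4 and 56 under siFOXA1, 40.7 and 50.5 under siFOXA1+siZBED2-1, and 19.5 and 13.7 under siFOXA1+siZBED2-2. Its interaction was -2.15 (SE 0.44, adjusted p = 0.021), and the lowest FOXA1-depleted libraries were those with siZBED2-2. FBXO32, a ubiquitin ligase subunit of muscle wasting, had 15.8 and 14.3 CPM under siControl, 32.9 and 34 under siZBED2-1, 11.7 and 15.1 under siZBED2-2, 144 and 162 under siFOXA1, 85.9 and 77.5 under siFOXA1+siZBED2-1, and 100.3 and 89.2 under siFOXA1+siZBED2-2. Its interaction was -1.29 (SE 0.26, adjusted p = 0.017). SAT1, the enzyme that acetylates spermidine and spermine, had 151 and 98.6 CPM under siControl, 205 and 211 under siZBED2-1, 159 and 105 under siZBED2-2, 353 and 415 under siFOXA1, 263 and 208 under siFOXA1+siZBED2-1, and 193 and 234 under siFOXA1+siZBED2-2, and its interaction was -1.18 (SE 0.24, adjusted p = 0.016). In FBXO32 the interaction was called for siZBED2-1 (-2.05) and differed between the siRNAs by -1.53 (SE 0.30, adjusted p = 0.038). FER1L4, a pseudogene of the ferlin family, fell on adding siZBED2 to siFOXA1 (-1.20) without a call under siFOXA1 (0.32), and as reads of its relatives could be shared its value of -1.53 is uncertain.

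Above 0, the largest group was 24 genes that siFOXA1 lowered. By the mean of both ZBED2 siRNAs these had no call on siControl and rose again in part or in full on siFOXA1. With the replicate block, some of them did pass as lower on siControl. Examples were MZT2B (-0.46, adjusted p = 0.024), SLC1A6 (-0.78, 0.029) and PALM (-1.11, 0.04). EIF3K (adjusted p = 0.53) and IGFBP3 (0.79) did not pass with the block. On siControl siZBED2-1 alone lowered DDIT4 (-0.64, adjusted p = 0.023), MZT2B (-0.62, 0.0073) and SLC1A6 (-1.51, 0.0012), but not EIF3K or IGFBP3 by a call. On siFOXA1, SLC1A6 rose with siZBED2-2 (1.66, adjusted p = 0.0073), and its change with siZBED2-1 did not pass (0.50, adjusted p = 0.5). EIF3K (ENSG00000178982, chr19:38619188-38636954), a subunit of translation initiation factor eIF3, had 220.5 and 249.7 CPM under siControl, 228 and 191 under siZBED2-1, 199 and 206 under siZBED2-2, 104 and 99.9965 under siFOXA1, 181 and 209 under siFOXA1+siZBED2-1, and 186 and 214 under siFOXA1+siZBED2-2. Both siFOXA1 libraries were the lowest of the 12, and the double knock-downs overlapped with the siZBED2 libraries. The interaction was 1.14 (SE 0.18, adjusted p = 0.0025), with -0.19 (SE 0.13, adjusted p = 0.58) on siControl and 0.95 (SE 0.13, adjusted p = 0.00028) on siFOXA1. IGFBP3, a binding protein of insulin-like growth factors, had 959 and 1042 CPM under siControl, 1004 and 885 under siZBED2-1, 854 and 979 under siZBED2-2, 459.7 and 281 under siFOXA1, 702 and 832 under siFOXA1+siZBED2-1, and 781 and 714 under siFOXA1+siZBED2-2, and its interaction was 1.14 (SE 0.20, adjusted p = 0.0058). PPDPF, a small protein named for pancreatic progenitor differentiation, stood at 1035 and 1046 CPM under siControl, 1153 and 1108 under siZBED2-1, 1047 and 1007 under siZBED2-2, 110.1 and 58.4 under siFOXA1, 193 and 206 under siFOXA1+siZBED2-1, and 251 and 169 under siFOXA1+siZBED2-2. The 4 double knock-down libraries exceeded both siFOXA1 libraries but lay far below both siControl libraries, and the interaction was 1.23 (SE 0.23, adjusted p = 0.0099).

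DDIT4, the stress-induced mTORC1 inhibitor also known as REDD1, had 412 and 341 CPM under siControl, 265 and 218 under siZBED2-1, 379.8 and 376 under siZBED2-2, 106 and 66.1 under siFOXA1, 124 and 139 under siFOXA1+siZBED2-1, and 247 and 181 under siFOXA1+siZBED2-2. Its interaction was 1.28 (SE 0.22, adjusted p = 0.0059). GPI, the glycolytic enzyme glucose-6-phosphate isomerase, had 366 and 416 CPM under siControl, 164 and 124 under siFOXA1, 265 and 237 under siFOXA1+siZBED2-1 and 309 and 248 under siFOXA1+siZBED2-2, for an interaction of 1.01 (SE 0.19, adjusted p = 0.0094). H6PD, which feeds the pentose phosphate pathway in the endoplasmic reticulum, had an interaction of 1.94 (SE 0.39, adjusted p = 0.018), and EPAS1, the hypoxia-inducible factor HIF-2α, one of 0.84 (SE 0.20, adjusted p = 0.043). EPAS1 was not called on siControl (adjusted p = 1) and rose by 0.83 on siFOXA1 (adjusted p = 0.0027). KRT13, a keratin of differentiated stratified and transitional epithelium, had 4756 and 4956 CPM under siControl, 4691 and 3718 under siZBED2-1, 4612 and 3982 under siZBED2-2, 1813 and 1120.3 under siFOXA1, 2279 and 2084 under siFOXA1+siZBED2-1, and 2429 and 2278 under siFOXA1+siZBED2-2. Its interaction was 0.82 (SE 0.19, adjusted p = 0.036).

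Genes of the cell cycle were among the 24. CCNE1, the cyclin E1 that drives entry into S phase, had 134 and 145 reads under siControl, 131 and 51 under siZBED2-1, 126 and 132 under siZBED2-2, 4 and 7 under siFOXA1, 53 and 23 under siFOXA1+siZBED2-1, and 15 and 36 under siFOXA1+siZBED2-2. Every double knock-down library exceeded both siFOXA1 libraries, and the interaction was 2.91 (SE 0.73, adjusted p = 0.047). FBXO5, which restrains the anaphase-promoting complex before mitosis, had 54.4 and 48.5 CPM under siControl, 26.9 and 25 under siZBED2-1, 49.9 and 44.2 under siZBED2-2, 10.6 and 5.79 under siFOXA1, 14 and 13.3 under siFOXA1+siZBED2-1, and 28.5 and 20.0 under siFOXA1+siZBED2-2, with an interaction of 1.70 (SE 0.38, adjusted p = 0.034). MZT2B, a component of the γ-tubulin complex that has a close paralog, had 0.99 (adjusted p = 0.0094). F3, which encodes tissue factor, the starter of blood coagulation, had 65.4 and 46.7 CPM under siControl, 134 and 118 under siZBED2-1, 53 and 45.6 under siZBED2-2, 20.1 and 22.5 under siFOXA1, 73.4 and 80.0 under siFOXA1+siZBED2-1, and 69 and 54.1 under siFOXA1+siZBED2-2. Its rise on siFOXA1 was 1.69 (SE 0.20, adjusted p = 4.2e-05), and its interaction of 1.19 (SE 0.27, adjusted p = 0.034) was called for siZBED2-2 (1.71, adjusted p = 0.017) but not for siZBED2-1 (0.67, adjusted p = 0.34). SLC1A6, a glutamate transporter, had an interaction of 1.85 (SE 0.37, adjusted p = 0.016). PALM, the membrane protein paralemmin, had one of 2.82 (SE 0.58, adjusted p = 0.016). PALM was at 37.7 and 43.2 CPM under siControl, 17.2 and 17.9 under siZBED2-1, and 20.8 and 19.9 under siZBED2-2. It had 2.41 and 0.858 CPM under siFOXA1, 7.00 and 5.25 under siFOXA1+siZBED2-1, and 6.13 and 3.79 under siFOXA1+siZBED2-2. In 3 called genes a group had no library above 3 reads, so no fold is given. ENOX1, a cell surface oxidase, had 29 and 22 reads under siControl, 47 and 21 under siZBED2-1, 6 and 1 under siZBED2-2, 0 and 0 under siFOXA1, 21 and 26 under siFOXA1+siZBED2-1, and 9 and 16 under siFOXA1+siZBED2-2. BACE1, the β-secretase, had 74 and 103 reads under siControl, 155 and 68 under siZBED2-1, 34 and 72 under siZBED2-2, 1 and 0 under siFOXA1, 27 and 45 under siFOXA1+siZBED2-1, and 8 and 4 under siFOXA1+siZBED2-2, and the long noncoding RNA PCAT6 had 43 and 77 reads under siControl, 40 and 33 under siZBED2-1, 87 and 81 under siZBED2-2, 2 and 0 under siFOXA1, 14 and 20 under siFOXA1+siZBED2-1, and 35 and 20 under siFOXA1+siZBED2-2. In each the double knock-downs had more reads than siFOXA1.

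A second group above 0 was the 12 genes that siFOXA1 lowered and that fell on siControl by the mean of both ZBED2 siRNAs. For that mean, adding siZBED2 to siFOXA1 gave no call. Single siRNAs could differ: on siControl FABP4 changed by -1.15 with siZBED2-1 (adjusted p = 4.7e-05) and by 0.004 with siZBED2-2. On siFOXA1 its change was -0.12 with siZBED2-1 and 1.09 with siZBED2-2 (adjusted p = 0.0013). CAMK2N1 (ENSG00000162545, chr1:20482391-20486210), an inhibitor of the kinase CaMKII, had 793 and 893 CPM under siControl, 316 and 316 under siZBED2-1, 771 and 718 under siZBED2-2, 488 and 502 under siFOXA1, 431 and 448 under siFOXA1+siZBED2-1, and 618 and 626 under siFOXA1+siZBED2-2. Its interaction was 0.88 (SE 0.15, adjusted p = 0.0041). The fall on siControl came mostly with siZBED2-1, and the interaction was called for siZBED2-1 (1.24) and not for siZBED2-2 (0.51, adjusted p = 0.32). FABP4, a fatty acid carrier and PPARG target of the luminal program, had 925 and 1056 CPM under siControl, 434 and 459 under siZBED2-1, 1013 and 974 under siZBED2-2, 195 and 117 under siFOXA1, 122 and 166 under siFOXA1+siZBED2-1, and 346 and 320.3 under siFOXA1+siZBED2-2, with an interaction of 1.06 (SE 0.21, adjusted p = 0.016). UBAC1, an adaptor of a ubiquitin ligase, had 151 and 167 CPM under siControl, 39.8 and 47 under siZBED2-1, 106 and 106 under siZBED2-2, 81.3 and 79.6 under siFOXA1, 52 and 48.9 under siFOXA1+siZBED2-1, and 90.2 and 99.1 under siFOXA1+siZBED2-2, and its interaction was 1.01 (SE 0.21, adjusted p = 0.024). HMMR, a spindle protein, had 112 and 134 CPM under siControl, 37.6 and 32.2 under siZBED2-1, 99.95 and 99.5 under siZBED2-2, 29.5 and 21.5 under siFOXA1, 22.9 and 14.1 under siFOXA1+siZBED2-1, and 47.5 and 48.8 under siFOXA1+siZBED2-2, for an interaction of 1.29 (SE 0.29, adjusted p = 0.034). The G protein subunit gene GNAI2 (0.99, adjusted p = 0.027), the nuclear import factor gene KPNA2 (1.00, adjusted p = 0.023), the anticoagulant receptor gene THBD (1.75, adjusted p = 0.026) and HNRNPK (0.62, adjusted p = 0.047), whose pseudogenes could take some of its reads, belonged to the same group. TIMP3, an inhibitor of metalloproteinases, was the only called gene above 0 that siFOXA1 raised (0.96). It stood at 596 and 529 CPM under siControl, 242 and 246 under siZBED2-1, 629.9 and 659.9 under siZBED2-2, 1075 and 1121 under siFOXA1, 1186 and 1032 under siFOXA1+siZBED2-1, and 1394 and 1394 under siFOXA1+siZBED2-2. Without the FOXA1 siRNA the low libraries were those of siZBED2-1, and the interaction was 0.68 (SE 0.14, adjusted p = 0.024).

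Gene lists are described by their members, beside all genes tested, of which edgeR called 0.611%, 12.1% had an unadjusted p under 0.05 and 51.0% lay above 0, with a median interaction of 0.01. Unless another tool is named, calls are those of edgeR without the block. Of 74 cytosolic ribosomal proteins, the protein part of the cytoplasmic ribosome, 73 had an interaction above 0 with a median of 0.36, 45 had an unadjusted p under 0.05, and 3 were called: RPS6 (0.79, adjusted p = 0.0059), RPL10A (0.71, 0.021) and RPL12 (0.70, 0.037). With the replicate block 14 were called, and with DESeq2 20, each time with 0 below 0, while limma on TPM called 0. RPS6 had 1907 and 2147 CPM under siControl, 2062 and 2095 under siZBED2-1, 1959 and 1795 under siZBED2-2, 1006 and 972 under siFOXA1, 1634 and 1758 under siFOXA1+siZBED2-1, and 1602 and 1660.4 under siFOXA1+siZBED2-2. When siZBED2 was added to siFOXA1, 29 of the 74 rose and 0 fell (background 1.32% and 0.641%). On siControl 1 of the 74 rose and 0 fell (background 1.33% and 1.04%), and siFOXA1 alone lowered 31 and raised 0 (background 11.9% and 11.3%). The share of all counts taken by these genes was 6.34% and 5.90% under siFOXA1, 7.63% to 8.64% in the 4 double knock-down libraries and 7.82% to 8.66% in the other 6. The siFOXA1 libraries also had the highest mitochondrial share, and the part of that in the result was not tested. Ribosomal protein genes have many processed pseudogenes, so single members are uncertain.

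Genes of mitosis also leaned above 0, with 42 of 43 members and a median of 0.66. At an unadjusted p under 0.05 there were 19 members above and 0 below 0. For siZBED2-1 alone the list median was 0.51, with 8 members above 0 at that threshold. For siZBED2-2 alone it was 0.84, with 21 such members. In SCaBER the median of the mitosis list was 0.79. HMMR was the single member called by edgeR, 2 were called by DESeq2 (HMMR and ASPM), 7 by edgeR without the filter on low counts and 0 by limma on TPM. ASPM (1.16) and TPX2 (0.80), both spindle proteins, had adjusted p = 0.092 and 0.2, passing with the replicate block at 0.012 and 0.023. Mitosis genes fell under siFOXA1 (41 of 43 called, background 11.9% called lower) and 5 of 43 fell under siZBED2 on siControl (background 1.04%). For siZBED2 on siFOXA1 edgeR called 0 of 43 (background 1.96% in either direction). There 5 of 43 had an unadjusted p under 0.05, as had 14.2% of all genes tested. The median interaction of mitosis genes was 1.15 without siFOXA1 replicate 1 and 0.24 without siFOXA1 replicate 2. Of 40 DNA replication genes 30 were above 0 (median 0.22), with CCNE1 called by edgeR and 0 members by DESeq2, and without single libraries that median ran from -0.11 to 0.66. Of 30 genes of hypoxia and glycolysis, 25 were above 0 (median 0.37) and 0 were called by edgeR, with 7 at an unadjusted p under 0.05, 1 by DESeq2 and 0 by limma on TPM. The nearest was TPI1, a glycolytic isomerase, at 0.63 (SE 0.17, adjusted p = 0.099). With the replicate block TPI1, LDHA and GAPDH passed, at adjusted p = 0.015, 0.0015 and 0.0066, and their interactions without it were 0.63, 0.83 and 0.61.

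**Figure D4:**
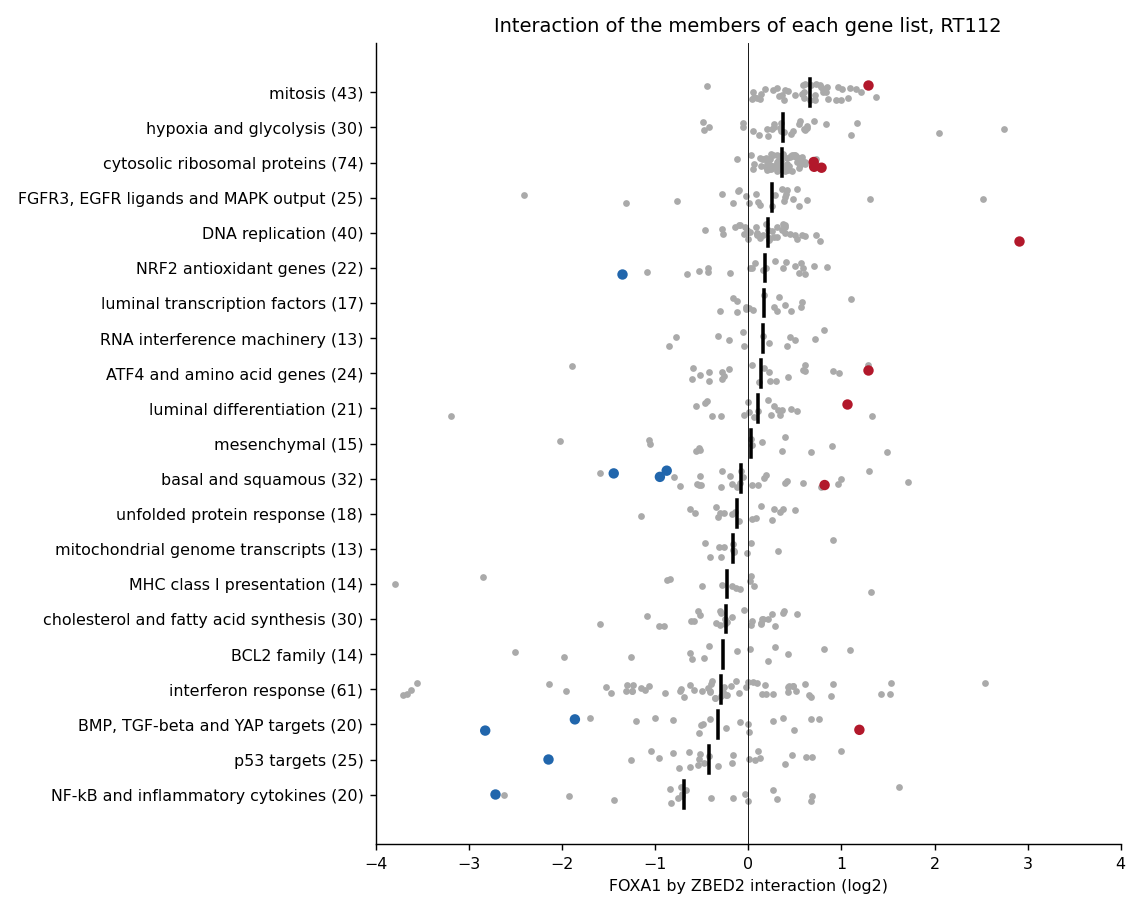
Interaction (log2, horizontal axis) of each member (points) of 21 gene lists in RT112, with the number of members tested in brackets and the median as a black bar. Coloured points are called members, red above and blue below 0. Ribosomal protein and mitosis genes lie almost wholly to the right of 0, and the interferon, p53 and NF-kB lists have medians to the left. The axis leaves out 3 members beyond 4 in size.

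The interferon response was of interest because ZBED2 can compete at interferon response elements. Of 61 members tested 40 were below 0, the median was -0.29, and 0 were called by edgeR, 1 by DESeq2 (STAT2) and 0 by limma on TPM. At an unadjusted p under 0.05 there were 7, of which 6 were below 0, a share close to the 12.1% of all genes. The median ran from -0.63 to 0.01 with single libraries left out. For siZBED2-1 alone the list median was -0.57, with 21.3% of members above 0 against 50.1% of all genes. For siZBED2-2 alone it was -0.12, with 44.3% above 0 against 51.5%. In SCaBER the median of the list was -0.84. STAT2, a subunit of the factor that carries the type I interferon signal to the nucleus, had 12.1 and 12.1 CPM under siControl, 37.2 and 24.3 under siZBED2-1, 20.4 and 17.2 under siZBED2-2, 54 and 45.1 under siFOXA1, 60.2 and 40.8 under siFOXA1+siZBED2-1, and 39 and 28.8 under siFOXA1+siZBED2-2. Its interaction of -1.25 (SE 0.37, adjusted p = 0.13) did not pass by edgeR on the RT112 libraries. DESeq2 called STAT2, as did the fit with the replicate block (adjusted p = 0.048). It also passed in one edgeR fit over 24 libraries (-1.26, SE 0.32, adjusted p = 0.048). STAT2 was raised by siFOXA1 (2.03, adjusted p = 2.3e-05), and its siZBED2 change was 0.99 on siControl (adjusted p = 0.054) and -0.26 on siFOXA1 (adjusted p = 0.68). IFITM3, an antiviral membrane protein, had -1.32 (adjusted p = 0.2, with the replicate block 0.023). IRF9, the DNA-binding partner of STAT2, had 7 and 13 reads under siControl, 35 and 11 under siZBED2-1, 10 and 11 under siZBED2-2, 126 and 93 under siFOXA1, 124 and 31 under siFOXA1+siZBED2-1, and 71 and 15 under siFOXA1+siZBED2-2, and its interaction was -1.48 (SE 0.88, adjusted p = 0.53). CD274, which encodes PD-L1, had 7 and 6 reads under siControl, 20 and 12 under siZBED2-1, 15 and 15 under siZBED2-2, 60 and 58 under siFOXA1, 43 and 70 under siFOXA1+siZBED2-1, and 58 and 16 under siFOXA1+siZBED2-2, with an interaction of -1.53 (SE 0.87, adjusted p = 0.5). In both genes the replicate libraries of siFOXA1+siZBED2-2 were far apart. The interferon-stimulated response element was in 49.2% of the 65 promoter windows of the interferon list, in 2.5% of those of the called genes below 0 and in 2.0% of those above 0, against 2.31% of all windows.

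Of 20 NF-kB and cytokine genes 15 were below 0 (median -0.69), with BIRC3 called below 0 by edgeR. DESeq2 instead called TNFAIP2 above 0 and NFKBIA below 0. Of 25 p53 targets 16 were below 0 (median -0.42), with GDF15 called below 0. The 20 BMP, TGF-β and YAP targets were split, with ANKRD1 and CYR61 called below and F3 above 0 (median -0.32). The 32 basal and squamous genes were split as well, EGFR and SPRR3 being among the members called below 0 and KRT13, which DESeq2 did not call, being called above 0 (median -0.08). SQSTM1 of the NRF2 list, DDIT4 of the ATF4 list and FABP4 of the luminal differentiation list were the single members of those lists called by edgeR. DESeq2 also called TXN (above 0), FTL and PRDX1 (both below 0) of the NRF2 list and AARS (above 0) of the ATF4 list. TXN and AARS also passed with the replicate block. In each of the remaining lists 0 members were called by edgeR. The members with the smallest p in them included RXRA (0.57, adjusted p = 0.19) of the luminal transcription factors, IDI1 (-0.96, 0.15) of cholesterol synthesis, HSP90B1 (0.51, 0.13) of the unfolded protein response, BMF (-2.50, 0.33) of the BCL2 family, ETV5 (1.31, 0.18) of MAPK output, TNRC6B (-0.77, 0.14) of RNA interference, MT-CO1 (0.91, 0.28) of the mitochondrial genome and COL1A1 (-1.43, 0.13) of the markers of other cells. Of these, HSP90B1 passed with DESeq2, COL1A1 with DESeq2 and the replicate block, IDI1 with the block and without the filter on low counts, and MT-CO1 without the filter. For MHC class I it was HLA-B, with 0 and 0 reads under siControl, 11 and 5 under siZBED2-1, 0 and 7 under siZBED2-2, 18 and 22 under siFOXA1, 6 and 10 under siFOXA1+siZBED2-1, and 4 and 0 under siFOXA1+siZBED2-2, at an adjusted p of 0.25.

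The ZBED2 siRNAs differed in strength. For scale, siFOXA1 on siControl changed 3084 genes (23.3%). On siControl, siZBED2-1 changed 1167 genes (8.8%) and siZBED2-2 22 (0.166%), and on siFOXA1 they changed 338 (2.55%) and 166 (1.25%). The interaction was called for 151 genes (1.14%) with siZBED2-1, 360 (2.71%) with the replicate block, and for 13 (0.098%) with siZBED2-2, 41 (0.309%) with the block. Of the 81 genes called over both, 67 were also called with siZBED2-1, 12 with siZBED2-2 and 12 with neither. The median size of the interaction over the 81 genes, in the direction of the mean, was 1.28 with siZBED2-1 and 1.08 with siZBED2-2. Both sizes are raised by the choice of these genes on that mean. The genes called with siZBED2-2 by smallest p were CALU (-1.42), SLC17A5 (-2.35), SQSTM1 (-1.38) and MAP2 (-3.67) below 0, and F3 (1.71), EIF3K (1.19), RPS6 (0.83) and DDIT4 (1.31) above 0. Those called with siZBED2-1 were ANKRD1, LIPH, FBXO32 and SLC17A5 below 0, and CAMK2N1, TIMP3, HNRNPK and THBD above 0.

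The difference between both single-siRNA interactions, in which siControl and siFOXA1 cancel, was called for 12 genes (0.0905%), 29 (0.219%) with the replicate block. They included TXNIP, GPRC5A, ANKRD1, TIMP3, DAB2, MXD4, SLC12A2, FBXO32, ANXA3, LIPH and HNRNPK, named after their values were seen. TXNIP, a thioredoxin inhibitor that follows glucose supply, had 479 and 498 CPM under siControl, 823 and 1074 under siZBED2-1, 520.0 and 553 under siZBED2-2, 227 and 198 under siFOXA1, 177 and 154 under siFOXA1+siZBED2-1, and 490.0 and 405 under siFOXA1+siZBED2-2. It was highest under siZBED2-1 alone, while on siFOXA1 it was higher with siZBED2-2 than without, and the difference was -2.26 (SE 0.20, adjusted p = 3.9e-07). GPRC5A, a retinoic acid-induced receptor, had 175 and 170.0 CPM under siControl, 551 and 448 under siZBED2-1, 158 and 132 under siZBED2-2, 144 and 133 under siFOXA1, 181 and 199.5 under siFOXA1+siZBED2-1, and 166 and 141 under siFOXA1+siZBED2-2, with high libraries under siZBED2-1 only and a difference of -1.47 (SE 0.21, adjusted p = 0.0018). DAB2, an endocytic adaptor, differed by -3.60 (SE 0.63, adjusted p = 0.0088). For TXNIP, GPRC5A and DAB2 the interaction over both siRNAs was not called (adjusted p = 0.74, 0.48 and 0.995).

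The effect of siZBED2 on siControl and that on siFOXA1 share no library. On siControl 314 genes (2.37%) were called, 176 higher and 138 lower, and 486 (3.66%) with the replicate block. On siFOXA1 260 (1.96%) were called, 175 higher and 85 lower, and 444 (3.35%) with the block. Of these 49 were called in both, 15.6% of the former list and 18.8% of the latter, 47 in the same direction and 2, ANKRD1 and SLC17A5, in opposite directions. Of the 49 genes, 2 had a called interaction. Across the 13264 genes, which are not independent replicates, both effects had a Pearson r of 0.05 (0.13 for siZBED2-1 and 0.04 for siZBED2-2), with low-count genes included.

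In SCaBER the same interaction was called for 120 genes (0.81% of 14823) in a fit of all 24 libraries. For ANKRD1 it was -1.89 (SE 0.27, adjusted p = 0.00063). IGFBP3 had 1.42 (SE 0.23, adjusted p = 0.0013) and PPDPF 1.44 (SE 0.26, adjusted p = 0.0033), and these 3 genes had the same sign as in RT112. For EIF3K it was 0.04 (SE 0.18, adjusted p = 1) and for DDIT4 0.02 (SE 0.24, adjusted p = 1). Others of the 81 were also called in SCaBER with the same sign as in RT112. Among them were CALU (-0.76, adjusted p = 0.033), SQSTM1 (-0.85, 0.026) and LIPH (-1.50, 0.028) below 0. Above 0 they included FBXO5 (1.79, adjusted p = 0.013), HMMR (1.13, 0.03), UBAC1 (1.01, 0.019) and GPI (0.74, 0.037). STAT2 had -1.98 (SE 0.30, adjusted p = 0.0008) in SCaBER, and in the same fit it passed in RT112 too (-1.26, SE 0.32, adjusted p = 0.048). The difference of the interaction between the lines was called for 2 genes (0.0135%), 8 (0.054%) with the replicate block, and for 915 at an unadjusted p under 0.05. PMEPA1, an inhibitor of TGF-β signalling, was one of the 2, and neither was called for the interaction in RT112. Of the 81 RT112 genes, 0 were called by edgeR as differing from SCaBER and 36 had an unadjusted p under 0.05, which does not show that they acted alike. With the replicate block 1 of the 81 was called, TIMP3, whose difference without the block was 0.95 (SE 0.20, adjusted p = 0.093) and whose blocked adjusted p was 0.037.

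**Figure D5:**
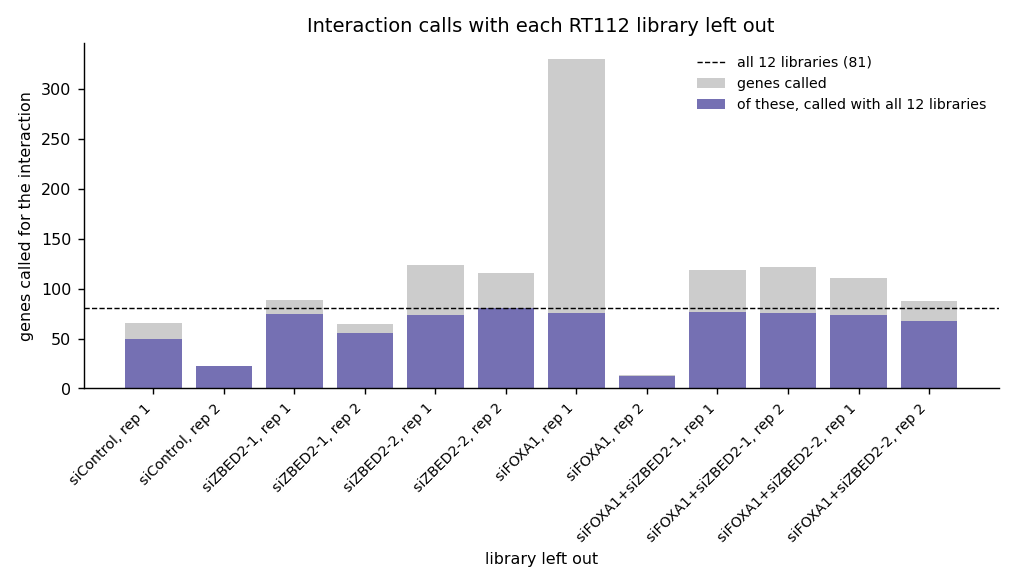
Number of genes called for the RT112 interaction when a single library is left out (bars, vertical axis from 0), with the part that was also called with all 12 libraries in purple and the 81 calls of all 12 as a dashed line. The bars run from 13 without siFOXA1 replicate 2 to 330 without siFOXA1 replicate 1.

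Leaving out libraries changed how many genes passed. Of the 81 genes, 12 were still called without siFOXA1 replicate 2, 22 without siControl replicate 2, 50 without siControl replicate 1 and 76 without siFOXA1 replicate 1, and 0 changed sign in any of the 12 fits. The 81 genes were picked with all 12 libraries, so a kept sign follows in part from the selection. Where a group was left with 1 library, that library was assumed to vary like the other groups. The 12 genes kept without siFOXA1 replicate 2 included the 9 stable ones, GDF15 and SDCBP2. Counts for siFOXA1 replicate 1 lay between replicate 2 and the double knock-downs in IGFBP3, DDIT4, PPDPF and KRT13, whose values are given above.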

How the data were processed

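RNA of siRNA-transfected RT112 and SCaBER cells was made into 3′ mRNA libraries (Lexogen FWD kit), in which reads lie near the polyadenylated end. The authors deposited raw counts per gene. Per their deposited pipeline settings, reads passed raw-qc 2.1.0 and TrimGalore 0.6.2 (minimum quality 20, minimum length 10, no poly-A trimming), were aligned single-end with STAR 2.6.1a to hg38 and counted per gene by STAR on GENCODE 29 letting the pipeline find the strand. In its methods the study gives hg19 instead. No molecular identifiers are stated, so counts may include PCR copies. The authors also deposited TPM, scaled by gene length, although 3′ reads do not scale with length, and TPM served 1 alternative only.

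Counts were tested with edgeR 4.0.16 (R 4.3.3): TMM factors, filterByExpr by group (minimum count 10, minimum total 15), glmQLFit and glmQLFTest over 12 RT112 libraries and 6 group means, with Benjamini-Hochberg adjustment over 13264 genes and a call at an adjusted p under 0.05. The line difference used 24 libraries and 14823 genes. The biological coefficient of variation was 25.8%. SE is that of the coefficient. Alternatives were RLE factors, library size alone, no filter, DESeq2 1.42.0, limma 3.58.1 with trend on log2(TPM + 1), a replicate block, each library left out, and a fit over 24 libraries. The fit was tested on simulated data first, with interactions set in well-expressed genes. Of 100 interactions with a log2 of 1 in size 44 were called, and of 100 with a log2 of 2 there were 95. Among unchanged genes 6 were called. A gene that was not called can thus still hold an interaction with a log2 of 1.

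Replicate numbers are an experiment batch per the labels and thus pair the samples, although deviations of equal numbers correlated at 0.03 on average (0 of 15 group pairs over 0.1). Replicates differed beyond counting noise (chi-square per gene 7.27 to 22.1). The labels do not say whether replicates were separate cultures beyond this, so p-values measure the spread between these libraries. Named genes were, by rule, FOXA1, ZBED2, STAT2, CD274 and IRF9, the 12 smallest p per direction, up to 4 called members of each list (else the smallest p), the 4 smallest p per direction for each siRNA, genes called oppositely, and line differences; other genes, chosen after their values were seen, were added as examples. Members and lists were chosen with earlier results of these data known. Symbols were matched to RefSeq (GRCh38.p14), 97 of 98 named genes with coordinates. Results for some genes are not reported here.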

Additional observations from a re-analysis of the deposited data

Results flagged for a closer look

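PMEPA1, an inhibitor of TGF-β signalling, had an interaction that differed between the lines by a test of the difference itself. It was 0.36 in RT112 and -1.25 in SCaBER, a difference of 1.61 (SE 0.29, adjusted p = 0.024). Levels in RT112 ran from 266.8 CPM under siFOXA1+siZBED2-1 to 480.3 under siControl, and in SCaBER from 44.3 under siControl to 120.8 under siFOXA1. The difference did not pass the threshold without RT112 siFOXA1 replicate 2 (1.46, adjusted p = 0.13), without SCaBER siControl replicate 1 (1.47, 0.18), without SCaBER siFOXA1 replicate 1 (1.39, 0.079), with library size alone (1.55, 0.063) or by limma on log2(TPM + 1) (1.51, 0.45).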

How the results depend on the processing

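None of the 81 called genes, which were picked with these same libraries, changed sign with any single library left out. The number of calls moved widely. Without a filter on low counts the interaction was called for 224 genes (siZBED2-1 361, siZBED2-2 60), with DESeq2 for 238 (340 and 77), by limma on log2(TPM + 1) for 4 (2 and 2), and in one fit over 24 libraries for 136 (227 and 22). The replicate block, which pairs libraries by the labelled batch, gave 212 (360 and 41), 486 for siZBED2 on siControl, 444 for siZBED2 on siFOXA1, 29 for the difference between the siRNAs and 8 for that between the lines. siZBED2 on siControl had 13 calls by limma on TPM, and siZBED2 on siFOXA1 had 430 without the filter, 422 with DESeq2 and 3 by limma on TPM. The difference between the siRNAs had 63, 48 and 1 in the same order, and that between the lines 33, 43 and 1, with 1 for library size alone. With single libraries left out, calls ran from 13 to 330 for the interaction (lowest without siFOXA1 replicate 2, highest without siFOXA1 replicate 1), 54 to 403 for siZBED2-1, 5 to 142 for siZBED2-2, 74 to 420 for siZBED2 on siControl, 30 to 378 for siZBED2 on siFOXA1, 6 to 41 for the difference between the siRNAs, 1869 to 3213 for siFOXA1 on siControl and 1 to 16 for that between the lines. The alternatives for siFOXA1 on siControl were chosen after seeing the data, and limma on TPM split its calls into 391 higher and 1748 lower against 1499 and 1585. RLE factors and library size alone gave 83 and 73 interaction calls. The interaction of FOXA1 itself, not called, was 0.17 and became -0.05 without siFOXA1 replicate 1, -0.29 without siFOXA1+siZBED2-1 replicate 2 and -0.01 without siFOXA1+siZBED2-2 replicate 1, and its range with single libraries left out was -0.29 to 0.45. Where a count moved, the cause was not tested. With 2 libraries a group and a few reads for genes such as ZBED2, IRF9 and CD274, small interactions of such genes were not detectable at this depth.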

Other observations

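A reading chosen after seeing the data took the genes called for siFOXA1 on siControl in SCaBER, whose libraries take no part in the RT112 fit, and described them in RT112. The 1091 genes higher in SCaBER that were tested in RT112 had a median siFOXA1 change of 0.66 on siControl, 0.36 on siZBED2-1 and 0.42 on siZBED2-2, and a median interaction of -0.27 with 25.3% of genes above 0. The 1143 lower genes had medians of -0.81, -0.47 and -0.53, and an interaction of 0.32 with 78.7% above 0. Over all genes tested in RT112 the median interaction was 0.01 and 51.0% of genes lay above 0. The interaction and the change on siControl use the same siControl and siFOXA1 libraries of RT112, so these values stand side by side and no test was made.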
